A study of Mus musculus with 4 samples.

Results

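The 9 genes described here encode the histone methyltransferase MLL (Kmt2a), its chromatin partners menin (Men1) and LEDGF (Psip1), the methyltransferase DOT1L (Dot1l), and 5 proteins known as fusion partners of MLL in leukemia (Mllt1, Mllt3, Mllt10, Aff1 and Aff4). They were taken by name from a table of 27179 genes, and all 9 were present and above the filter on low values, so each was tested. The samples were leukemia stem cells (LSCs), the cells held to sustain an acute myeloid leukemia (AML), sorted from the bone marrow of a mouse model on the C57BL/6 strain as cells that were YFP+, Mac-1+ and c-Kit+. The genotypes were wild type and B7-H4-null, here called null, with 2 samples each, numbered replicate 1 and 2. B7-H4 is an inhibitory ligand of T cells. The labels give no oncogene, age, sex, or animal of origin, and do not say whether the B7-H4 gene was missing from the leukemia, the host or both. A gene-level table cannot tell apart reads of an endogenous gene and reads of an introduced copy that holds its sequence.

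MLL places methyl groups on lysine 4 of histone H3 and keeps HOX genes active in blood-forming cells. Menin and LEDGF bind its amino-terminal part and tether it to chromatin, and this part is kept when translocations fuse MLL to a partner. Most partners belong to machines that release RNA polymerase II into elongation: AF4 and AF5q31 (Aff1 and Aff4) are scaffolds of the super elongation complex, ENL and AF9 (Mllt1 and Mllt3) are its readers of acylated histones, and AF10 (Mllt10) is a cofactor of DOT1L, which methylates lysine 79 of histone H3.

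The start regions of 3 of the genes are printed because Kmt2a and Mllt3 had the most similar profiles among the 9 genes, while the ratio of Kmt2a to Men1 varied most. They are the bases before the outermost annotated start of each gene (RefSeq, GRCm38.p6), 187 bases for Kmt2a at chr9:44881353-44881539 on the minus strand, 250 bases for Mllt3 at chr4:88033408-88033657 on the minus strand, and 250 bases for Men1 at chr19:6334729-6334978 on the plus strand. Capitals mark GC boxes (GGGCGG) and CCAAT boxes (CCAAT) on either strand.
Kmt2a: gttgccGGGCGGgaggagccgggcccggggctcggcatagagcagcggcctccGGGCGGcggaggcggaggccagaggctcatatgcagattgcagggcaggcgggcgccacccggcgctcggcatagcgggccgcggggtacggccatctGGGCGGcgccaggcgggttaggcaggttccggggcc
Mllt3: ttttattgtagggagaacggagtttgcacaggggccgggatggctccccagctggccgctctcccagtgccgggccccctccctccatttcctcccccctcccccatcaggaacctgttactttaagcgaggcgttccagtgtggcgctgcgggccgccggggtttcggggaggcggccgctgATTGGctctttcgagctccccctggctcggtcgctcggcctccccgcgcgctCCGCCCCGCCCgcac
Men1: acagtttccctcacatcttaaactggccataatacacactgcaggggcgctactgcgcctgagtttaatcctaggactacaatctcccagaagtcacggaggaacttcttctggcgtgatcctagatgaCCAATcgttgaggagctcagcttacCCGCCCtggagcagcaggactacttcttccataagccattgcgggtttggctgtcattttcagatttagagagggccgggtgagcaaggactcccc
In windows of 250 bases before a start, Kmt2a held 4 GC boxes, of which 3 lie in the printed bases, and no CCAAT box, Mllt3 at this start 2 and 1, and Men1 1 and 1. A GC box occurred in 32.7% and a CCAAT box in 33.8% of all 32851 windows of this length. The Kmt2a window held 29 CpG dinucleotides and the Mllt3 window 23, against 8 in the Men1 window and a median of 6 over all windows. Windows of Dot1l, Mllt1 and Aff4 held more, at 44, 37 and 34. Those of Aff1 held 35 and 20, and those of Mllt10 held 4, 36 and 5. A second Mllt3 window held 4, with 2 CCAAT boxes and no GC box, and further Men1 windows held 10 and 9. Whether start sequence goes with profile was not tested. Such matches describe the sequence only, and the table does not show which start was used.

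Library totals between 9419425 and 10814448 reads were recovered from the steps between the deposited values, which are reads scaled to gene length and library size (RPKM). They are the totals used in that scaling and need not be all reads sequenced. Between 11814 and 11871 genes reached 1 RPKM per library. The sort markers were present, with Kit at 24.0 and 7.19 RPKM in the wild-type libraries against 11.02 and 9.37 RPKM in the null ones. Itgam, which encodes the alpha chain of Mac-1, stood at 114.1 and 86.9 against 82.9 and 59.9 RPKM, and Itgb2, its beta chain, at 212.6 and 212.9 against 123.1 and 146.1 RPKM. Ptprc, the pan-leukocyte gene, which was not part of the stated sort, stood at 58.6 and 67.9 against 52.5 and 48.3 RPKM. Kit overlapped, the other 3 were lower in both null libraries, against 28.0% of all tested genes, and none of the 4 passed the limma test. The 10 T and NK cell genes summed to 0.764 to 1.82 RPKM per library and 8 erythroid genes to 1.49 to 4.14 RPKM, while Pax5, a defining B cell gene, was at 0 in all 4 libraries. The 7 B cell genes summed to 36.3 and 46.4 RPKM in the wild-type libraries against 60.5 and 63.5 RPKM in the null ones. Nearly all of each sum was Cd79b. Cd79b and Vpreb1 were tested, and both were higher in both null libraries without passing, against 16.0% of all tested genes. Vpreb1 stood at 0 and 0.131 against 1.66 and 2.05 RPKM. Among those not tested, Cd79a was lower, at 0.966 and 0.607 against 0.16 and 0.557 RPKM, and Ebf1 higher, at 0 and 0 against 0.0472 and 0.0823 RPKM. The 6 megakaryocyte genes summed to 30.1 and 16.7 against 29.4 and 16.2 RPKM. Of these, Gp1bb stood at 26.2 and 10.8 against 12.7 and 11.8 RPKM, and Itga2b at 1.92 and 4.04 against 15.6 and 3.12 RPKM. The 8 stromal and endothelial genes summed to 27.7 and 30.1 against 58.1 and 39.5 RPKM, with Cdh5 at 0 in 3 libraries. Pecam1, which blood cells also express, stood at 16.4 and 17.7 against 37.1 and 31.0 RPKM. Pdgfrb, also on this list, stood at 8.29 and 10.6 against 19.8 and 6.82 RPKM, and Col1a1 at 1.72 and 0.876 against 0.879 and 1.20 RPKM. Of 16 tested late neutrophil genes, 15 were lower in both null libraries than in both wild-type ones, against 28.0% of all tested genes. Of 15 tested immediate early genes, 14 were higher in both, against 16.0% of all tested genes. In the limma test 0 genes of either list passed after adjustment. At an unadjusted p under 0.05, 13 neutrophil genes were lower, against 7.2% of all tested genes, and 12 immediate early genes higher, against 5.05%. The 16 neutrophil genes summed to 31845 and 24356 RPKM in wild type and to 8656 and 12551 RPKM in the null group, and the 16 immediate early genes to 2456 and 3719 against 13178 and 6210 RPKM. The part of these marker lists in the differences given here was not tested. In bulk samples, fewer cells of a type and less RNA per cell cannot be told apart.

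None of the 9 genes differed between the genotypes past the threshold. The test was limma on log2(RPKM + 1) with Benjamini-Hochberg adjustment over 12107 tested genes, of which 12 passed (0.0991%), 7 of them lower (0.0578%) and 5 higher (0.0413%) in the null group. At an unadjusted p under 0.05 it marked 1 of the 9 genes, Mllt10, as lower and 0 as higher. Over all tested genes it marked 12.3%, of which 872 genes lower (7.2%) and 612 higher (5.05%), and after median-ratio scaling 644 lower and 781 higher. Of the 9 genes, 7 had a log2 difference, null minus wild type, below 0, as had 7085 of the 12107 genes (58.5%). The median log2 difference of the 9 was −0.31, against −0.09 over all tested genes, and it was −0.11 with wild type replicate 1 left out and −0.53 with replicate 2 left out, and −0.47 and −0.26 without null replicate 1 and 2. After median-ratio scaling, which brought the median of all genes to 0.01, it was −0.21, and 7 of the 9 lay below 0, against 49.4% of all tested genes.

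**Figure D1:**
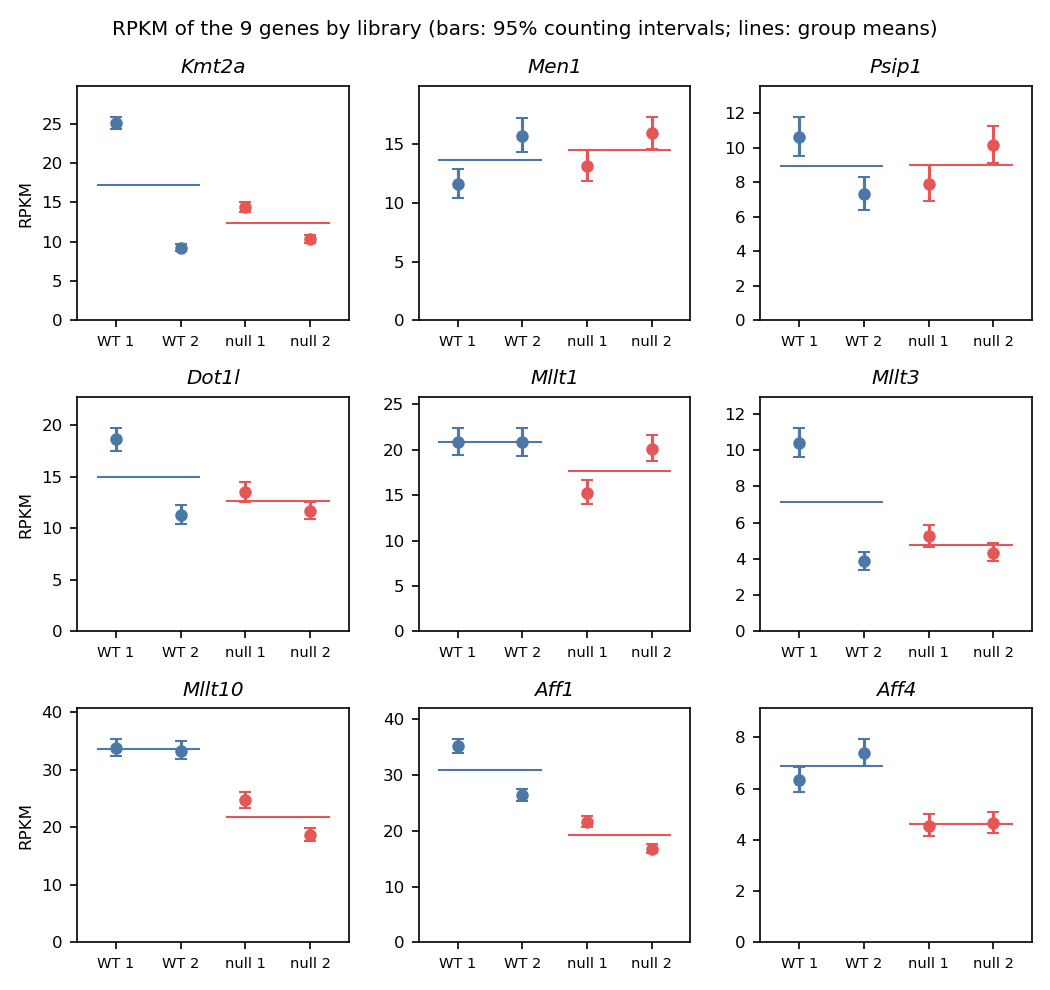
RPKM (vertical axis, from 0) of each of the 9 genes in the 2 wild-type (blue) and 2 null (red) libraries, with exact 95% counting intervals as bars and group means as lines. Kmt2a and Mllt3 stand highest in wild type replicate 1, at 25.1 and 10.4 RPKM. Both null libraries lie below both wild-type libraries for Mllt10, Aff1, Aff4 and Mllt1, as for 28.0% of all tested genes.

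Kmt2a, which encodes the MLL methyltransferase (gene ID 214162, chromosome 9, 44803355 to 44881352, GRCm38.p6 as for all positions), stood at 25.1 and 9.25 RPKM in the wild-type libraries against 14.4 and 10.4 RPKM in the null ones. The highest and the lowest value were thus both wild-type libraries, which differed 2.72-fold, and both null libraries lay between them. These values rest on 4194 and 1510 reads in wild type and on 2231 and 1843 reads in the null group, and the exact 95% counting intervals were 24.4 to 25.9 and 8.79 to 9.72 RPKM for the wild-type libraries. These intervals do not overlap. Of the tested genes, 1.31% stood as far or farther above wild type replicate 2 in wild type replicate 1. Means were 17.2 ± 11.2 RPKM in wild type and 12.4 ± 2.86 RPKM in the null group (SD, n = 2), a log2 difference of −0.31 ± 0.453 (SE, limma adjusted p = 0.819). The difference was 0.37 with wild type replicate 1 left out, −0.98 with replicate 2 left out, −0.53 without null replicate 1 and −0.09 without null replicate 2, so its direction turned with 1 library. Kmt2a overlaps the annotated gene Gm39326, and Mllt3 overlaps Gm34232.

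Men1, which encodes menin, the adaptor between MLL and LEDGF (gene ID 17283, chromosome 19, 6334979 to 6340894), measured 11.6 and 15.7 RPKM in the wild-type libraries against 13.1 and 15.9 RPKM in the null ones. The genotypes overlapped, and Men1 was lowest in the library where Kmt2a was highest. Its means were 13.6 ± 2.89 and 14.5 ± 1.97 RPKM (SD, n = 2), with a log2 difference of 0.09 ± 0.269 (SE, limma adjusted p = 0.916). Without wild type replicate 1 it was −0.11, and without null replicate 2 it was −0.04. The ratio of Kmt2a to Men1, which does not depend on how libraries are scaled, was 2.17 and 0.59 in wild type and 1.10 and 0.653 in the null group. Of the 36 ratios between members, this had the widest range over the 4 libraries, 1.88 on the log2 scale.

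Psip1, which encodes LEDGF, a reader of methylated lysine 36 of histone H3 (gene ID 101739, chromosome 4, 83455680 to 83486463), measured 10.6 and 7.31 RPKM in the wild-type libraries against 7.91 and 10.1 RPKM in the null ones. Each genotype held a high and a low library, and the means were nearly equal, at 8.97 ± 2.35 and 9.02 ± 1.58 RPKM (SD, n = 2). The log2 difference was 0.02 ± 0.285 (SE, limma adjusted p = 0.987), and it was −0.22 without wild type replicate 2 and −0.14 without null replicate 2. Psip1 overlaps Snapc3 in the annotation, and since the library kit does not mark strand, reads from their shared stretch cannot be told apart.

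Dot1l, the only member besides Kmt2a that encodes a histone methyltransferase (gene ID 208266, chromosome 10, 80755101 to 80795461), measured 18.6 and 11.3 RPKM in the wild-type libraries against 13.5 and 11.7 RPKM in the null ones. Its libraries ranked as those of Kmt2a did, with a narrower span of 1.65-fold against 2.72-fold. Means were 15.0 ± 5.17 and 12.6 ± 1.27 RPKM (SD, n = 2), with a log2 difference of −0.20 ± 0.302 (SE, limma adjusted p = 0.828) that was 0.14 with wild type replicate 1 left out and −0.53 with replicate 2 left out. Relative to Kmt2a, Dot1l stood at 0.741 and 1.23 in wild type and at 0.938 and 1.13 in the null group, ratios of RPKM that overlapped between genotypes.

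Mllt10, which encodes AF10, the cofactor that lets DOT1L methylate lysine 79 beyond the first step (gene ID 17354, chromosome 2, 18055160 to 18212390), measured 33.8 and 33.3 RPKM in the wild-type libraries against 24.7 and 18.7 RPKM in the null ones. Both wild-type libraries agree to within 1.02-fold and stand above both null libraries, as they do for 28.0% of all tested genes. Means were 33.6 ± 0.357 and 21.7 ± 4.29 RPKM (SD, n = 2), 1.55-fold lower in the null group. The log2 difference of −0.62 ± 0.257 (SE) did not pass (limma adjusted p = 0.402), and it ranged from −0.81 without null replicate 1 to −0.43 without null replicate 2. Within a library, the ratio of Dot1l to Mllt10 was 0.552 and 0.34 in wild type against 0.547 and 0.628 in the null group, which overlapped. Of the 36 ratios between members, 9 did not overlap between the genotypes. Many of these ratios share a gene, none was tested, and no matching share over pairs of other genes was computed. The gene overlaps Dnajc1 and 4 smaller annotated genes, whose reads may be counted with it.

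Aff1 and Aff4, the scaffolds of the super elongation complex, were both lower in both null libraries. So were 28.0% of all tested genes, and 48.1% of those with a recovered length of 5 kb or more, as both genes have. Aff1 (gene ID 17355, chromosome 5, 103692362 to 103855322) measured 35.2 and 26.4 RPKM in the wild-type libraries against 21.7 and 16.8 RPKM in the null ones, from 1541 to 3038 reads per library. Its means of 30.8 ± 6.23 and 19.2 ± 3.45 RPKM (SD, n = 2) were 1.61-fold apart, and the log2 difference of −0.65 ± 0.276 (SE) was the largest of the 9 without passing (limma adjusted p = 0.41). Aff4 (gene ID 93736, chromosome 11, 53350640 to 53421830) measured 6.34 and 7.41 RPKM in the wild-type libraries against 4.56 and 4.68 RPKM in the null ones. The means of Aff4 were 6.87 ± 0.753 and 4.62 ± 0.079 RPKM (SD, n = 2), with a log2 difference of −0.48 ± 0.247 (SE, limma adjusted p = 0.491). Aff4 stood at 0.18 and 0.28 of the level of Aff1 in wild type and at 0.211 and 0.279 in the null group. This ratio overlapped between genotypes. Aff4 overlaps 3 small annotated genes, whose reads may be counted with it.

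Mllt1 and Mllt3, which encode the related histone readers ENL and AF9, had different profiles. Mllt1 (gene ID 64144, chromosome 17, 56892608 to 56935509) measured 20.9 and 20.8 RPKM in the wild-type libraries against 15.3 and 20.1 RPKM in the null ones. Replicate 2 of the null group lay just below wild type, its counting interval of 18.7 to 21.6 RPKM covering both wild-type values. Its means were 20.9 ± 0.0621 and 17.7 ± 3.43 RPKM (SD, n = 2), with a log2 difference of −0.24 ± 0.256 (SE, limma adjusted p = 0.74) that was −0.05 without null replicate 1 and −0.43 without null replicate 2. Mllt3 (gene ID 70122, chromosome 4, 87769925 to 88033407) measured 10.4 and 3.87 RPKM in the wild-type libraries against 5.24 and 4.34 RPKM in the null ones. As with Kmt2a, the wild-type libraries held its highest and lowest values, 2.69-fold apart. The means of Mllt3 were 7.14 ± 4.63 and 4.79 ± 0.636 RPKM (SD, n = 2), with a log2 difference of −0.37 ± 0.418 (SE, limma adjusted p = 0.754) that was 0.25 with wild type replicate 1 left out and −0.98 with replicate 2 left out. Mllt1 exceeded Mllt3 in every library, 2.01-fold and 5.38-fold in wild type and 2.91-fold and 4.63-fold in the null group.

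**Figure D2:**
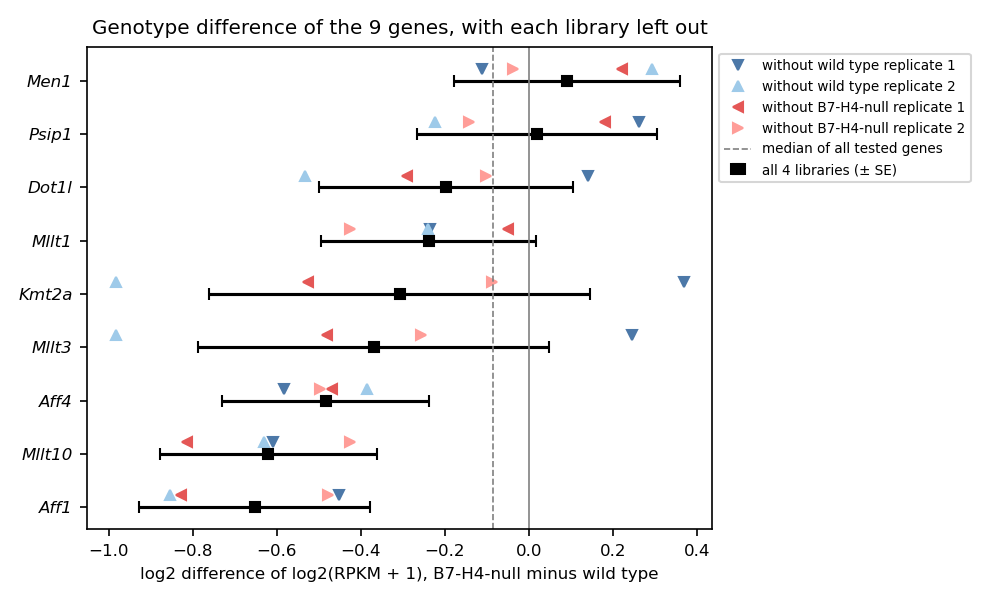
Log2 difference of log2(RPKM + 1), null minus wild type (horizontal axis), of each of the 9 genes over all 4 libraries (black squares, bars ± SE) and with each library left out (triangles); the dashed line is the median of all tested genes, −0.09. The triangles of Aff1, Mllt10, Aff4 and Mllt1 stay below 0, which follows from their null libraries both lying below both wild-type ones. Those of Kmt2a and Mllt3 run from −0.98 to 0.37 and to 0.25.

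In order of mean RPKM, a scale per gene length, Mllt10 and Aff1 led in both genotypes, and Mllt3 and Aff4 came last. Mllt10 and Aff1 overlapped each other in their libraries in both genotypes. In wild type they stood apart from Mllt1, and the 4 genes from Mllt1 through Kmt2a and Dot1l to Men1 overlapped neighbour by neighbour. In the null group, neighbours overlapped from Mllt10 down to Kmt2a, and the libraries of Psip1 lay below those of Kmt2a and above those of Mllt3. Mllt1 was the highest member in null replicate 2. Kmt2a was the third of the 9 in wild type replicate 1 and the sixth in wild type replicate 2. Among all tested genes, the members ranged from percentile 30.5 to 76.7 in wild type replicate 1 and from 21.4 to 74.3 in wild type replicate 2. In the null libraries they ranged from 26.0 to 69.4 in replicate 1 and from 24.7 to 62.1 in replicate 2, and no member was among the most abundant genes.

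For 4 of the 9 genes (Mllt10, Aff1, Aff4 and Mllt1) both null libraries lay below both wild-type libraries, and for 0 above. Over all tested genes this was so for 28.0% in the lower and 16.0% in the higher direction. After median-ratio scaling, 3 of the 9 were lower without overlap, against 22.2% of all genes in that direction and 22.1% in the other. Gene length moved with this count. Of the 9 genes, 6 had a recovered length of 5 kb or more, a boundary chosen after the values were seen, and 3 of these 6 were lower without overlap, against 48.1% of the 1631 tested genes of that length. The median log2 difference of those 1631 genes was −0.26, against −0.06 for the 10476 shorter genes. The 6 long members lay between −0.65 and −0.20 with a median of −0.43, and the 3 shorter ones, Men1, Psip1 and Mllt1, between −0.24 and 0.09. The part of length in the members' differences was not tested.

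Kmt2a and Mllt3 kept nearly the same proportion to each other in every library. The ratio of Kmt2a to Mllt3 in RPKM was 2.41 and 2.39 in wild type and 2.75 and 2.39 in the null group, although these were the members with the widest spread by themselves, 2.72-fold and 2.69-fold from the lowest to the highest library. The exact 95% counting intervals of this ratio, 2.22 to 2.62, 2.08 to 2.75, 2.44 to 3.11 and 2.11 to 2.71, all overlap. Its range of 0.20 on the log2 scale was the narrowest of the 36 pairs of members, ahead of Mllt10 to Aff1 at 0.39. The pair was singled out after the values were seen, so no test of it is given. The labels name no oncogene, and reads of an introduced copy holding Kmt2a or Mllt3 sequence cannot be told apart from endogenous reads, so neither these levels nor their ratio can be assigned to the endogenous genes.

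The tested genes nearest to Kmt2a across the 4 libraries, by root-mean-square distance of log2(RPKM + 1) after centring each gene, were Gfi1, Septin5 and Mllt3, out of 8993 genes with a mean of at least 5 RPKM. Gfi1 encodes a transcriptional repressor with a role in granulocyte development. It had 109.3 and 41.2 RPKM in the wild-type libraries against 61.1 and 48.6 RPKM in the null ones, a distance of 0.0433. Septin5, a cytoskeletal GTPase gene that is itself a known MLL fusion partner, had 98.2 and 37.1 RPKM in the wild-type libraries against 51.3 and 37.5 RPKM in the null ones, at 0.0747. Mllt3 followed at 0.0926. Kit, the receptor used in the sort, was the eighth nearest at 0.124, and Gp1bb, a platelet glycoprotein gene on the megakaryocyte list, the ninth at 0.146. Septin5 (chromosome 16, 18621811 to 18629938) and Gp1bb (18620319 to 18622403) overlap, so their reads cannot be fully told apart. Among the other members, Dot1l came in place 83 and Men1 in place 6670. The ratio of Kmt2a to Kit was 1.05 and 1.29 in wild type and 1.31 and 1.11 in the null group, and the ratio of Mllt3 to Kit 0.434 and 0.538 against 0.476 and 0.464. Kit and Gp1bb were chosen after their values were seen.

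**Figure D3:**
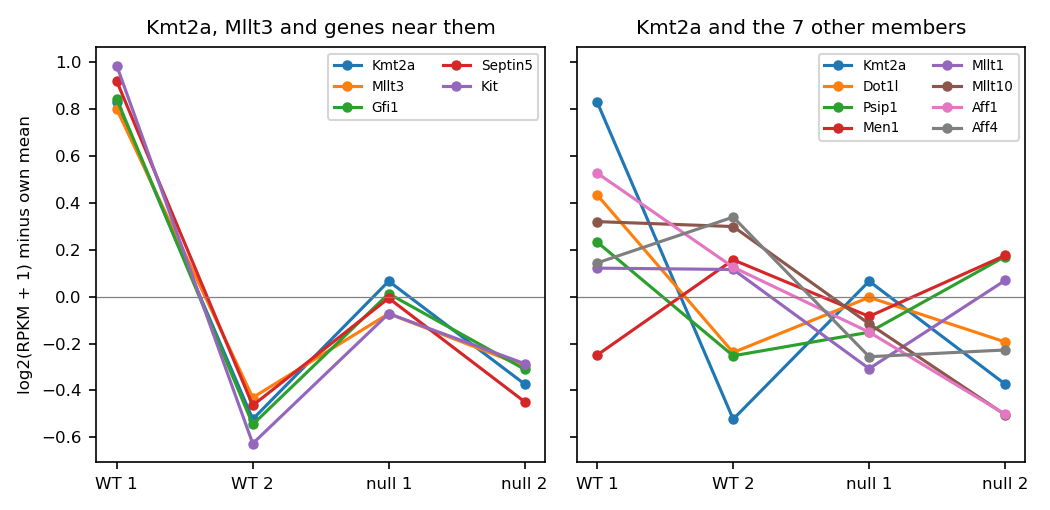
Log2(RPKM + 1) minus the gene's own mean over the 4 libraries (vertical axis), with a line joining the 4 libraries of each gene, which have no order. On the left, Kmt2a, Mllt3, Gfi1, Septin5 and Kit are all highest in wild type replicate 1 and lowest in wild type replicate 2; on the right, among the 7 other members, only Dot1l and Psip1 are also highest and lowest in those libraries.

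The other genes of the pathway were described by 5 lists. For comparison, 28.0% of all tested genes were lower and 16.0% higher without overlap, and their median log2 difference was −0.09. At an unadjusted p under 0.05 limma marked 7.2% of all tested genes lower and 5.05% higher. Among 20 other MLL and SET1 methyltransferases and their shared subunits, all tested, 0 passed in either direction, 8 were lower and 2 higher without overlap, and the median log2 difference was −0.22, with −0.10 and −0.38 as its values when wild type replicate 1 or 2 was left out. At an unadjusted p under 0.05 limma marked 2 lower and 0 higher. After median-ratio scaling, 7 of the 20 were lower and 3 higher without overlap, against 22.2% and 22.1% of all tested genes. Setd1b, a methyltransferase of lysine 4, had 9.69 and 10.6 RPKM in the wild-type libraries against 5.63 and 5.87 RPKM in the null ones (limma adjusted p = 0.331). Hcfc1, a scaffold of the MLL and SET1 complexes, had 45.1 and 57.8 against 31.3 and 34.7 RPKM (limma adjusted p = 0.405). Its relative Hcfc2 had 11.7 and 11.9 against 6.23 and 9.07 RPKM, and the coactivator Ncoa6 15.5 and 17.7 against 9.89 and 12.4 RPKM (limma adjusted p = 0.451 and 0.458). All 4 were lower in both null libraries, but they were named for the smallest p of the list, so this separation follows largely from the choice. Of the 20 genes, 15 had a log2 difference below 0 and 5 above, and 58.5% of all tested genes lay below 0. Kmt2b, the closest relative of Kmt2a, had 25.05 and 18.0 RPKM in the wild-type libraries against 22.3 and 15.5 RPKM in the null ones and overlapped. Kmt2d, the enhancer methyltransferase, had 10.5 and 11.2 against 8.22 and 7.75 RPKM. Wdr5, the core subunit shared by all these complexes, had 73.7 and 75.4 against 54.4 and 82.7 RPKM.

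Of 23 genes of the super elongation complex, P-TEFb and the PAF1 complex, 20 were tested and 0 passed, with 8 lower and 3 higher without overlap. At an unadjusted p under 0.05 limma marked 1 in each direction, and the median log2 difference was −0.08. It was 0.02 after median-ratio scaling, and between −0.18 and −0.14 with each library left out in turn. Over all tested genes the median was −0.09, and 28.0% were lower and 16.0% higher without overlap. At an unadjusted p under 0.05 limma marked 7.2% of them lower and 5.05% higher. Ell2, an elongation factor, had 0.756 and 0.882 RPKM in the wild-type libraries against 1.86 and 2.08 RPKM in the null ones (limma adjusted p = 0.368). Its relative Ell, another known fusion partner, went the other way in both libraries, at 19.9 and 22.5 against 15.0 and 14.3 RPKM (limma adjusted p = 0.465). Ccnt2, a cyclin of P-TEFb, had 20.9 and 16.9 against 13.1 and 9.999 RPKM (limma adjusted p = 0.383). Aff2, another scaffold of the AF4 family, had 4.57 and 2.31 against 1.80 and 1.44 RPKM (limma adjusted p = 0.451). Aff3, the remaining member of the AF4 family, was below the filter and not tested, at 0.131 and 0.201 against 1.36 and 0.846 RPKM. It was named after its values were seen.

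Of 26 other known fusion partners of MLL, 22 were tested and 0 passed, 1 was marked lower and 0 higher at an unadjusted p under 0.05, and 10 were lower and 1 higher without overlap. Their median log2 difference was −0.32, and it was −0.16 without wild type replicate 2 and −0.20 without null replicate 1. The median of all tested genes was −0.09, with 28.0% lower and 16.0% higher without overlap. At an unadjusted p under 0.05 limma marked 7.2% of all tested genes lower and 5.05% higher. Cbl, a ubiquitin ligase of receptor kinases, had 17.4 and 15.2 RPKM in the wild-type libraries against 10.97 and 6.88 RPKM in the null ones (limma adjusted p = 0.337). The acetyltransferases Ep300 and Crebbp had 20.1 and 21.4 against 16.1 and 10.01 RPKM and 9.26 and 11.9 against 7.81 and 6.11 RPKM (limma adjusted p = 0.426 and 0.482). Septin6 was the exception among those named, which were taken by the smallest p of the list. It had 8.60 and 7.65 against 12.1 and 12.6 RPKM (limma adjusted p = 0.422). It lay higher in both null libraries, whereas its relative Septin5 overlapped.

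Of 22 genes known as targets of MLL fusion proteins, 16 were tested. The gene that passed was Eya1, a coactivator that fell from 40.9 and 24.6 RPKM to 0 and 0.0213 RPKM (limma adjusted p = 0.00862). Leaving out either null library left 0 genes called in the whole table. At an unadjusted p under 0.05 limma marked 2 lower and 2 higher, against 7.2% and 5.05% of all tested genes. Without overlap, 6 were lower and 2 higher, against 28.0% and 16.0% of all tested genes, with members in both directions. Flt3, a receptor kinase of early progenitors, had 8.90 and 23.0 RPKM in the wild-type libraries against 99.3 and 102.8 RPKM in the null ones. Pbx3, a homeobox cofactor, had 65.2 and 76.2 against 26.0 and 28.9 RPKM, and the survival gene Bcl2 1.64 and 1.18 against 3.23 and 4.82 RPKM. Their limma adjusted p values were 0.13, 0.147 and 0.295. The median log2 difference of the 16 was −0.28, against −0.09 over all tested genes. It ranged with the library left out from −0.51 (wild type replicate 2) to 0.02 (wild type replicate 1), and was −0.14 without null replicate 2.

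Of 18 writers, readers and erasers of the same or linked histone marks, 17 were tested and 0 passed. At an unadjusted p under 0.05, 2 were marked lower and 0 higher, against 7.2% and 5.05% of all tested genes. Without overlap, 8 were lower and 1 higher, against 28.0% and 16.0% of all tested genes. The median log2 difference was −0.24, against −0.09 over all tested genes. Kdm5b, a demethylase that removes the mark MLL places, had 7.48 and 5.13 RPKM in the wild-type libraries against 2.43 and 1.703 RPKM in the null ones, a log2 difference of −1.24 (limma adjusted p = 0.231). Brpf1, a subunit of MOZ acetyltransferase complexes, had 76.5 and 66.4 against 45.6 and 47.6 RPKM (limma adjusted p = 0.39). Setd2, which methylates the lysine that LEDGF reads, had 31.9 and 31.2 against 23.7 and 20.7 RPKM (limma adjusted p = 0.476). Sirt1, a deacetylase, stood at 94.7 RPKM in null replicate 1 and at 14.9 RPKM in replicate 2, against 19.5 and 7.34 RPKM in wild type.

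**Figure D4:**
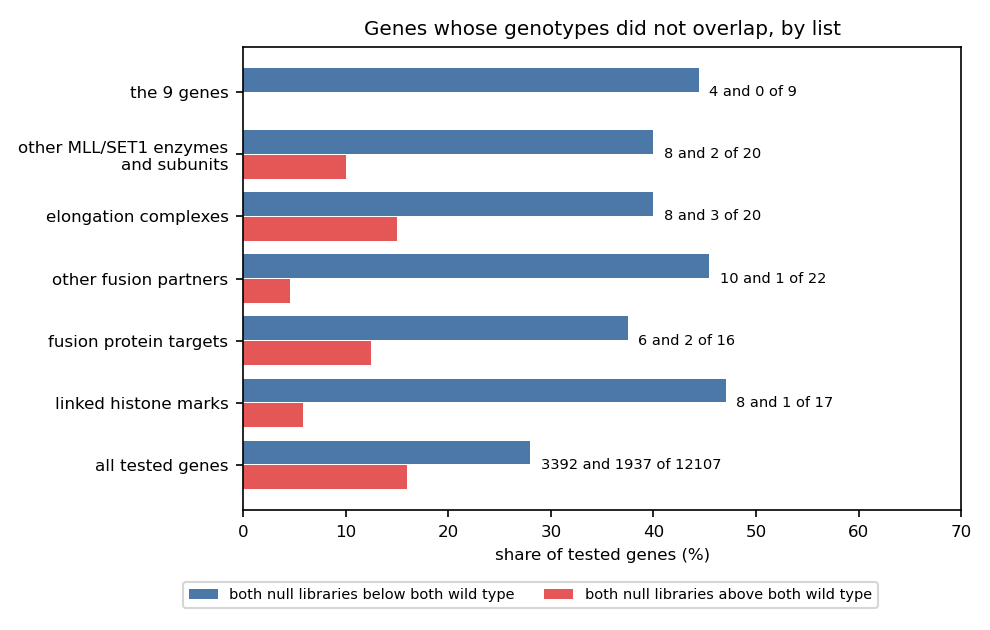
Share of tested genes (horizontal axis, percent) whose 2 null libraries both lay below (blue) or both above (red) both wild-type libraries, for the 9 genes, the 5 pathway lists and all tested genes, with counts printed as lower and higher of tested. The lower direction holds 4 of the 9 genes and 3392 of all 12107 tested genes.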

How the data were processed

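RNA of sorted LSCs was sequenced on a HiSeq2500 after TruSeq version 2 preparation, per the labels' protocols, and aligned with TopHat2 2.0.12 to GRCm38, per the submitters' processing notes. The counting program, annotation and strand setting were not given in the sources used here. The authors deposited RPKM values, 1 column per library and 1 row per Entrez gene ID; the unit was inferred from the values. Symbols and coordinates came from RefSeq (GRCm38.p6) for 25275 of 27179 IDs, and 18 more symbols from GENCODE.

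Library totals and gene lengths were recovered from the steps between values, and each of the 14608 genes detected in all libraries gave integer read numbers within 0.001 read. The length taken was the smallest that did so. A gene whose length and reads share a factor would thus get too short a length and too few reads. Counting intervals are exact and describe counting error alone. The test took genes reaching 1 RPKM in at least 2 libraries and was made with limma 3.58.1 in R 4.3.3 on log2(RPKM + 1), with a term for genotype, two-sided, with a trend of variance on mean, adjusted by Benjamini-Hochberg at 0.05. This scale understates changes of low genes. The procedure was also run on simulated data with noise drawn independently for each gene and library. Its outcome is not reported here and gives no assurance about spread that genes share. An exact permutation test of 2 against 2 cannot go below p = 0.333, so none was used. Since the labels tie no replicate to an animal of its own, the p-values reflect the spread of these samples alone, and that spread may be technical.

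The members and lists were chosen with earlier results of these data known. Named genes are the 9 members, the 4 genes with the smallest p of each pathway list, Kmt2b, Kmt2d, Wdr5 and Ell, and the 3 genes nearest to Kmt2a. Kit, Gp1bb and Aff3 were named after their values were seen. Some genes that the rule or the lists cover are not reported here. Of 194 list entries, 5 matched through an older symbol and 1 was not found. RefSeq start windows matched 8 of the 9 members. Alternatives were a pseudocount of 0.1, other filters and scalings, no trend, a replicate block, each library left out, and voom on recovered reads, the last added after seeing the data.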

Additional observations from a re-analysis of the deposited data

How the results depend on the processing

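With 2 libraries per genotype, only large differences can pass, and a p that misses the threshold does not show equal levels. None of the 9 genes passed under any of the 12 alternatives (lowest adjusted p = 0.195, limma with the replicate block, for Aff1). Aff1, Aff4, Mllt10 and Mllt1 kept a negative log2 difference in all 12. For these genes both null libraries lay below both wild-type libraries, as for 28.0% of all tested genes. Leaving out a library could therefore not turn their direction. The direction of the other 5 turned only where a library was left out. Across the libraries left out in turn, Kmt2a ranged from −0.98 to 0.37, Mllt3 from −0.98 to 0.25, Dot1l from −0.53 to 0.14, Men1 from −0.11 to 0.29 and Psip1 from −0.22 to 0.26. The values that turned were 0.37 for Kmt2a, 0.25 for Mllt3, 0.14 for Dot1l and −0.11 for Men1 without wild type replicate 1, −0.22 for Psip1 without wild type replicate 2, and −0.04 for Men1 and −0.14 for Psip1 without B7-H4-null replicate 2. The cause was not tested.

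Over all genes, limma called 12. With no filter on low values it called 0 of 20517, with 1088 lower and 799 higher at an unadjusted p under 0.05, and with voom 16 of 12107. Leaving out a library gave 0 to 56 calls: 56 and 29 without wild type replicate 1 and 2, and 0 without either B7-H4-null library, where 448 and 857 genes were lower and 489 and 619 higher at an unadjusted p under 0.05. The replicate block, with the replicate number as a term, gave 21 calls. Nothing in the labels says that equal numbers share an animal or day, and deviations of same-numbered libraries correlated at 0.247. The median of the other MLL and SET1 genes ranged from −0.38 to −0.10 across the libraries left out, −0.38 being the value without wild type replicate 2. Of the 5 pathway medians, those of the elongation genes after median-ratio scaling (0.02) and of the target genes without wild type replicate 1 (0.02) lay above 0.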
